A study of Mus musculus with 6 samples.

Results

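The genes described here are 10 members of the epidermal growth factor (EGF) receptor family, out of 24014 genes listed for each library of newborn mouse back skin. They were chosen by name from the count tables: the ligands Hbegf, Areg, Ereg, Epgn, Tgfa and Btc, the receptors Egfr, Erbb2 and Erbb3, and the receptor inhibitor Errfi1. All 10 had counts in every library and passed the filter on low counts. RNA was sequenced from wild-type epidermal cells taken on postnatal day 2, in 3 libraries from skin whose suction blister was healing and 3 libraries from control skin without a blister. The blister, a lifting of the epidermis off the dermis, was typically 3 mm wide and was raised at a negative pressure of 523.4 mmHg. The labels give neither the strain nor the number of animals behind a library, so the p-values reflect how far these libraries vary. Part of that variation could be technical, but the libraries of a group were not all repeats of the same sample. The sex-linked genes Xist and Ddx3y, given below, differed within each group.

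The EGF receptor and its relatives are membrane receptors whose kinase domains signal when 2 receptors pair. Their ligands are made as membrane-anchored precursors, and ADAM proteases cut them free. Erbb2 has no known ligand of its own and serves as a partner, Erbb3 has a weak kinase and binds neuregulins, and Errfi1 (also called Mig6) is a cytosolic protein that binds the kinase domain and blocks it. In skin, keratinocytes both make and respond to these ligands, and the pathway is known for its part in keratinocyte growth, migration and hair follicle form.

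Total counts ran from 7600567 to 15912863 per library, and levels are given as CPM (counts scaled to the size of the library) after TMM scaling. Basal keratinocyte markers summed to 54776, 59218 and 41226 CPM in blister 1, 2 and 3 against 21504 to 22438 CPM in controls, with 3 of 6 called higher. The keratin genes Krt5 and Krt14 made up most of these sums. Trp63, Itgb4 and Col17a1 were not called, at 1.06-fold, 1.14-fold and 1.25-fold. Suprabasal markers summed to between 40897 and 138251 CPM over all libraries, with 1 of 6 called higher, so the epidermal markers that the labels imply were high in every library. Markers of macrophages and Langerhans cells had 0 of 8 called. Those of T and mast cells had 1 of 7 tested called lower, and those of endothelium 2 of 5. Some other cells differed more with the groups. Hair follicle markers summed to 180.0, 159 and 742 CPM in blister 1, 2 and 3 against 2166 to 3791 CPM in controls, with 9 of 10 called lower, and neutrophil markers to between 245 and 756 CPM in blisters against 4.62 to 12.0 CPM in controls, with 5 of 5 tested called higher. Dermal fibroblast markers, with 4 of 9 called lower, summed to 7049.5 CPM in control 3 and to between 573 and 1364 CPM in the other 5 libraries. Postn, which was not called, gave 426 to 599 CPM of this sum in blisters and 262 to 898 CPM in controls. The 4 called lower, Dcn, Lum, Pdgfra and Twist2, lay below every control in every blister library. Blister 3 stood between the groups on the first principal component. Xist was high in blister 1, blister 2 and control 1 (838 to 1409 CPM) and low in the others (0.512 to 16.9 CPM). Ddx3y, also sex-linked, was at 0.275 to 1.30 CPM where Xist was high and at 40.2 to 62.0 CPM in the others. The groups were thus not balanced for sex, and blister 3 was the only blister library with high Ddx3y. In bulk RNA, fewer cells of a type and less RNA per cell cannot be told apart, and the part of these differences in the results below was not tested.

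Of the ligand genes, 4 rose in the healing blisters, led by Epgn, and the receptors did not pass the test in either direction. Of the 10 genes, 4 were higher and 0 lower in blister libraries at a threshold of 0.05 on the Benjamini-Hochberg adjusted p of edgeR's quasi-likelihood test, taken over 14028 genes. Among all genes tested 9.74% were called higher and 11.6% lower, 1367 and 1626 genes (544 and 2831 when libraries were scaled by size alone, which moved the median of all genes to -0.25 on the log2 scale). The median log2 fold change of the 10 genes was 0.19, and that of all tested genes 0.0019. Without control 1, 2 or 3, or without blister 1 or 2, the count of members called higher was 2, Hbegf and Epgn.

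**Figure D1:**
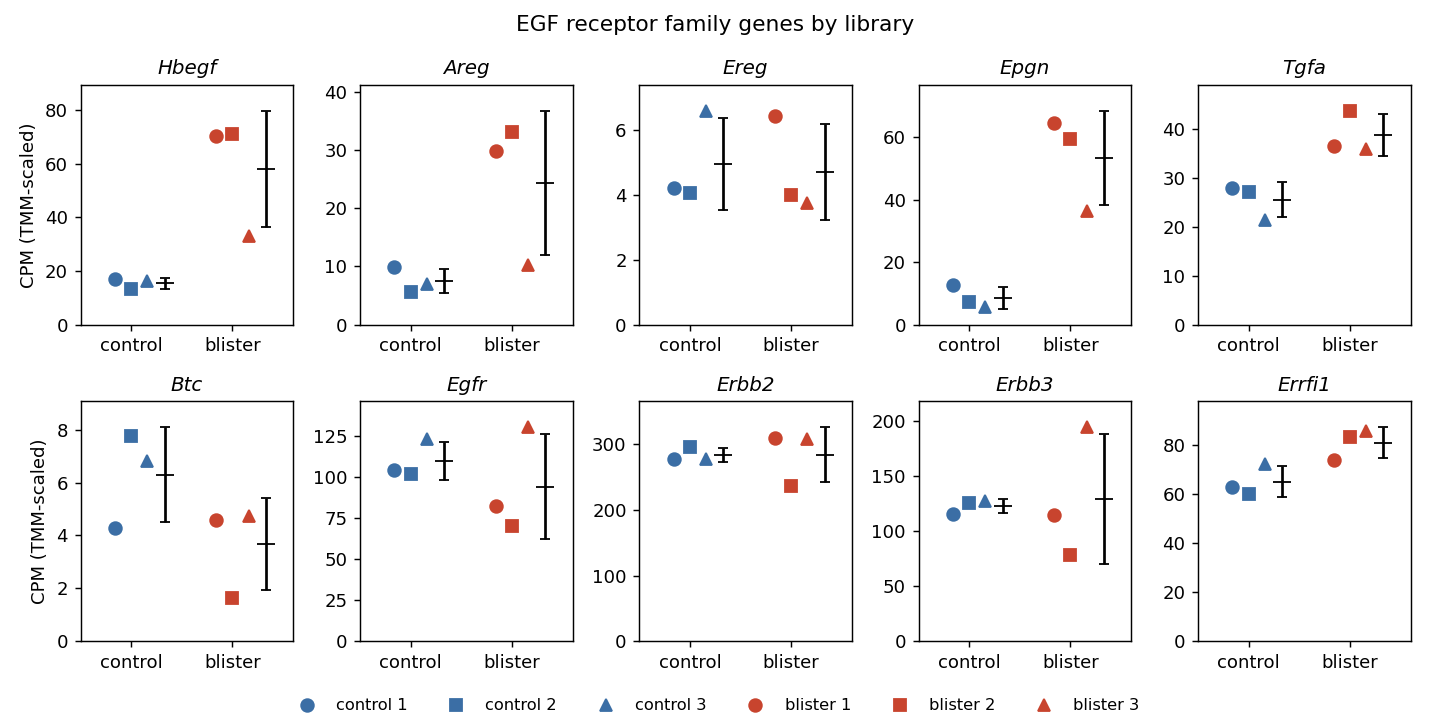
Level of each of the 10 genes in CPM (linear axis from 0, a scale for each gene) in 3 control and 3 blister libraries; each symbol is a library and black bars are the mean ± SD. Hbegf, Areg, Epgn, Tgfa and Errfi1 lie apart between the groups, as do 44.6% of all genes tested. Blister 3 is the lowest blister library for Hbegf, Areg and Epgn. Ereg, Btc and the receptors Egfr, Erbb2 and Erbb3 overlap.

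Among the ligands, Epgn changed by the largest factor of the 10 genes. Epgn encodes epigen, a ligand of the EGF receptor made in epithelia. Its level was 64.4, 59.5 and 36.3 CPM in blister 1, 2 and 3 and 12.7, 7.28 and 5.745 CPM in control 1, 2 and 3. Every blister library lay above every control, the lowest of them blister 3 (the groups did not overlap for 44.6% of all genes tested). The means were 53.4 ± 15.04 and 8.56 ± 3.63 CPM (SD, n = 3 each), a log2 fold change of 2.65 ± 0.34 (SE), or 6.26-fold (edgeR's adjusted p = 0.00702). The call held in each of the 6 fits that left out 1 library, at adjusted p of up to 0.0286 in edgeR.

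Hbegf encodes heparin-binding EGF-like growth factor, known for keratinocyte migration in wounds. The 3 blister libraries gave 70.2, 71.0 and 33.1 CPM for it, and control 1, 2 and 3 gave 16.9, 13.2 and 16.4 CPM. Blister 3 was again the lowest blister library, yet it lay at a higher level than each control. The log2 fold change was 1.91 ± 0.29 (SE), or 3.75-fold, on means of 58.1 ± 21.7 and 15.5 ± 2.02 CPM (SD, n = 3 each; edgeR's adjusted p = 0.00897). It too was called in all 6 fits with a library left out, with edgeR's adjusted p between 0.000956 and 0.0379.

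Areg encodes amphiregulin, a ligand that keratinocytes use to stimulate their own growth. Its level was 29.8, 33.04 and 10.2 CPM in blister 1, 2 and 3 and 9.82, 5.67 and 6.997 CPM in control 1, 2 and 3. Blister 3 lay only just over the highest control, so the rise was mostly in the other 2 blister libraries. The means of 24.35 ± 12.4 and 7.496 ± 2.12 CPM (SD, n = 3 each) gave a log2 fold change of 1.69 ± 0.44 (SE; edgeR's adjusted p = 0.0340). This call was lost when any library but blister 3 was left out, with edgeR's adjusted p of up to 0.104 without blister 1. It was also lost with the Xist level as a covariate (edgeR's adjusted p = 0.0776), in limma-voom (0.0653) and with the replicate number as a block.

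Tgfa encodes transforming growth factor alpha, another keratinocyte ligand of the EGF receptor. It measured 36.5, 43.8 and 36.0 CPM in the blister libraries and 28.0, 27.2 and 21.4 CPM in the controls. The groups did not overlap, as for 44.6% of all genes tested. The blister libraries were close together, but the change was small, 1.52-fold. The log2 fold change was 0.60 ± 0.15 (SE; edgeR's adjusted p = 0.0328). As for Areg, the call was lost without any 1 library other than blister 3 (edgeR's adjusted p up to 0.0920, without control 3), and with scaling by library size it was 0.35 (edgeR's adjusted p = 0.167), and with the Xist covariate edgeR's adjusted p was 0.0611.

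Ereg and Btc, the scarcest of the ligand genes, were not called. Ereg encodes epiregulin. It had 29 to 116 reads in a library and stood at 6.42, 3.99 and 3.74 CPM in the blisters against 4.22, 4.06 and 6.60 CPM in controls, with the groups overlapping. Its log2 fold change was -0.07 (95% interval -0.82 to 0.68, edgeR's adjusted p = 0.887). Btc encodes betacellulin, which binds both Egfr and Erbb4. With 12 to 120 reads in a library, it was at 4.59, 1.65 and 4.755 CPM in blister libraries and at 4.30, 7.77 and 6.83 CPM in controls, where control 1 lay below 2 of the blisters. The log2 fold change of Btc was -0.76 (95% interval -1.73 to 0.21, edgeR's adjusted p = 0.216).

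**Figure D2:**
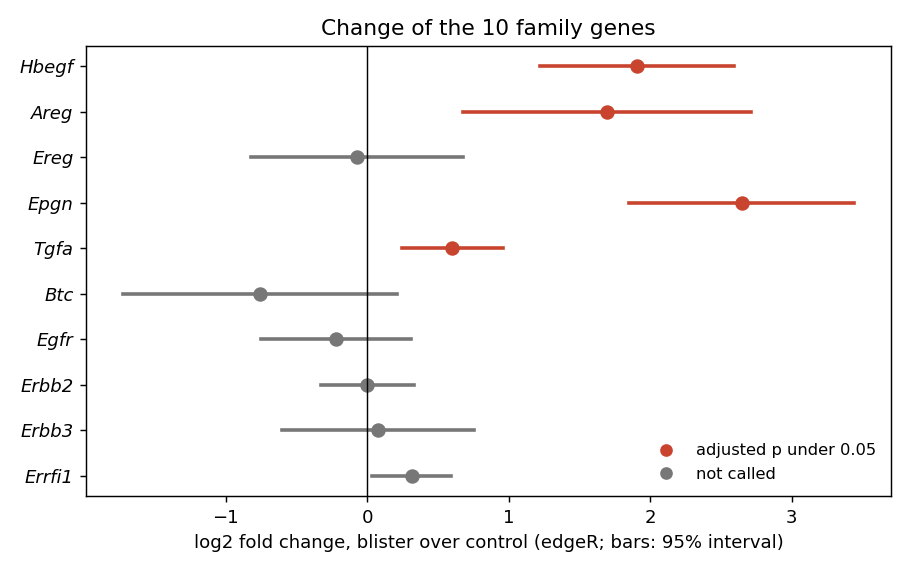
Log2 fold change of each of the 10 genes, blister over control, from edgeR, with bars for the 95% interval; red marks an adjusted p under 0.05. Epgn, Hbegf, Areg and Tgfa lie to the right of 0, at 2.65, 1.91, 1.69 and 0.60, and the interval of Erbb2 spans -0.33 to 0.33.

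The mix of ligand transcripts differed along with their amount. To compare levels between genes, CPM was divided by the length of all annotated exons of a gene in kilobases. On this scale the 6 ligands summed to 82.9, 82.9 and 42.8 CPM per kb in blister 1, 2 and 3 and to 24.9, 18.3 and 18.7 in control 1, 2 and 3. Epgn made up 43.2% ± 3.59 of that sum in blister libraries and 22.4% ± 5.61 in controls (SD, n = 3 each). Areg held 27.3% ± 6.90 against 29.6% ± 3.655, and Hbegf 17.1% ± 0.941 against 15.7% ± 2.14, and the shares of these ligands overlapped between the groups. Tgfa held 9.30% ± 3.25 of the sum in blisters against 19.3% ± 3.14 in controls, although its own level was higher. Ereg and Btc together were the smallest part in blisters, at 1.72% ± 0.493 and 1.37% ± 1.02, against 6.005% ± 2.28 and 7.09% ± 2.91 in controls. These shares are descriptions with no test. They depend on the length assigned to each gene: with the longest transcript in place of all exons, Hbegf held 24.5% in blisters and 21.8% in controls and Epgn 37.9% in blisters.

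**Figure D3:**
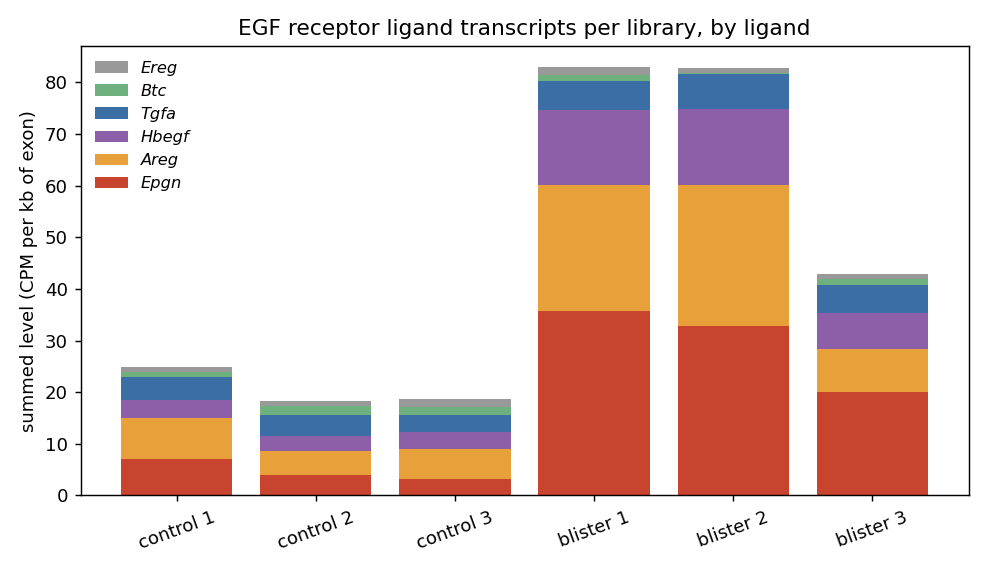
Summed level of the 6 ligand genes in each library, in CPM per kb of exon, stacked by ligand. The controls sum to between 18.3 and 24.9 and the blister libraries to between 42.8 and 82.9, with Epgn the largest segment in each blister library.

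In level per length, Erbb2 was highest and Btc and Ereg lowest of the 10 genes in both groups. In control libraries Erbb2 was at 54.5 ± 2.07 CPM per kb (SD, n = 3), followed by Erbb3 at 20.4 ± 1.06, Errfi1 at 18.1 ± 1.73 and Egfr at 9.68 ± 1.01. Every ligand lay below these, from Areg at 6.17 ± 1.74 CPM per kb, through Epgn at 4.74 ± 2.01, Tgfa at 3.93 ± 0.557 and Hbegf at 3.20 ± 0.417, to Btc at 1.39 ± 0.397 and Ereg at 1.20 ± 0.344. The libraries of neighbours in this order overlapped for Erbb3 and Errfi1, Areg and Epgn, Epgn and Tgfa, Tgfa and Hbegf, and Btc and Ereg, and did not overlap for the other neighbours. In blister libraries Erbb2 was still highest (54.5 ± 8.03 CPM per kb), and the next places were held by Epgn at 29.5 ± 8.32, Errfi1 at 22.5 ± 1.76, Erbb3 at 21.45 ± 9.82 and Areg at 20.04 ± 10.2, whose ranges overlapped. Hbegf at 12.0 ± 4.48 and Egfr at 8.30 ± 2.82 CPM per kb came next and overlapped. Hbegf also overlapped with Erbb3 and Areg, and Egfr with Areg. Tgfa, which overlapped with Egfr, followed at 5.97 ± 0.6695. In control libraries Epgn lay below Egfr in all 3, and in blister libraries above it in all 3. The order of the ligands depends on the length used. With the longest transcript, Areg, Tgfa, Hbegf and Epgn were at 6.17, 5.64, 5.35 and 4.86 CPM per kb in controls, Hbegf was at 20.1 and Areg at 20.04 in blisters, and Errfi1 at 21.3 lay above Erbb3 at 20.4 in controls.

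The receptor genes themselves varied more among the blister libraries than between the groups. For Egfr, the receptor of all 6 of these ligands, blister 1, 2 and 3 gave 82.0, 69.8 and 130.2 CPM, and the controls 104, 102 and 122.8 CPM. Blister 1 and 2 lay below every control and blister 3 above every control. Its log2 fold change was -0.22 (95% interval -0.75 to 0.31, edgeR's adjusted p = 0.507). Without blister 3 it was -0.52 and was called lower (edgeR's adjusted p = 0.0315).

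Erbb3 followed a like order, at 114, 78.6 and 194 CPM in blister 1, 2 and 3 against 115, 125 and 127 CPM in controls. Blister 3 was again the highest of all libraries and blister 2 the lowest. The log2 fold change was 0.08 (95% interval -0.60 to 0.76, edgeR's adjusted p = 0.869), and it turned to -0.34 without blister 3 and to -0.17 with scaling by library size. Melanocytes and Schwann cells also express Erbb3, and markers of these cells summed to 327, 500.1 and 526 CPM in blister 1, 2 and 3 and to between 835 and 982 CPM in controls, with 4 of 8 tested called lower. Their part in the Erbb3 level was not tested.

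Erbb2 was at 309, 236 and 307 CPM in blister libraries and at 277, 296 and 278 CPM in controls. The means were 284.1 and 283.8 CPM, and the 95% interval of the log2 fold change ran from -0.33 to 0.33 (edgeR's adjusted p = 0.994). Blister 2 was the lowest library for all 3 receptors. Per length, the receptors summed to 85.6, 64.5 and 103 CPM per kb in blister 1, 2 and 3 and to between 81.6 and 86.7 in controls. Erbb4, the remaining receptor of the family, had at most 0.367 CPM in any library and was not tested.

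Errfi1, the inhibitor, was somewhat higher in the blisters without passing the test. Blister 1, 2 and 3 gave 73.6, 83.1 and 85.5 CPM, and control 1, 2 and 3 gave 62.8, 60.1 and 71.9 CPM. The groups did not overlap, as was so for 44.6% of all genes tested. The log2 fold change was 0.31 ± 0.12 (SE; edgeR's adjusted p = 0.0956), and it was 0.06 with scaling by library size (edgeR's adjusted p = 0.773).

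Of the 6 ligand genes, 4 lie side by side, and their calls differed along the row. In the RefSeq genes of GRCm38, Epgn, Ereg, Areg and Btc follow each other on chromosome 5 with no other protein-coding gene of the count tables between them. Along this row a gene that was called higher alternated with one that was not: Epgn at 2.65, Ereg at -0.07, Areg at 1.69 and Btc at -0.76 on the log2 scale. This order rests on the Areg call, which was lost in 5 of 6 fits with a library left out, and Ereg and Btc had few reads. On the Epgn side lies Mthfd2l, a mitochondrial folate enzyme gene, which was not called (0.07, edgeR's adjusted p = 0.828), and beyond it a group of chemokine genes for neutrophil attraction. Of these, Cxcl2, Cxcl1 and Cxcl3 were called higher, with log2 fold changes of 7.30, 4.14 and 8.50, and Cxcl15 was too low to test. Cxcl3 had 3, 1 and 0 reads in control 1, 2 and 3 and 118 to 469 reads in the blister libraries, so its fold change is poorly bounded. The control means of Cxcl2 and Cxcl3 were 0.648 and 0.100 CPM, and 0.282 and 0.035 CPM without control 1. The call of Cxcl1, which had counts in control 3 alone among controls, was lost without blister 1 or 2 or control 1 or 2 (edgeR's adjusted p up to 0.102), and with the Xist covariate (0.102). On the Btc side, 0 of 5 genes (Parm1, Rchy1, Cdkl2, G3bp2 and Uso1) were called, at log2 fold changes from -0.44 to 0.32 (5 of the 13 tested genes in the whole row were called, against 21.3% of all genes tested).

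**Figure D4:**
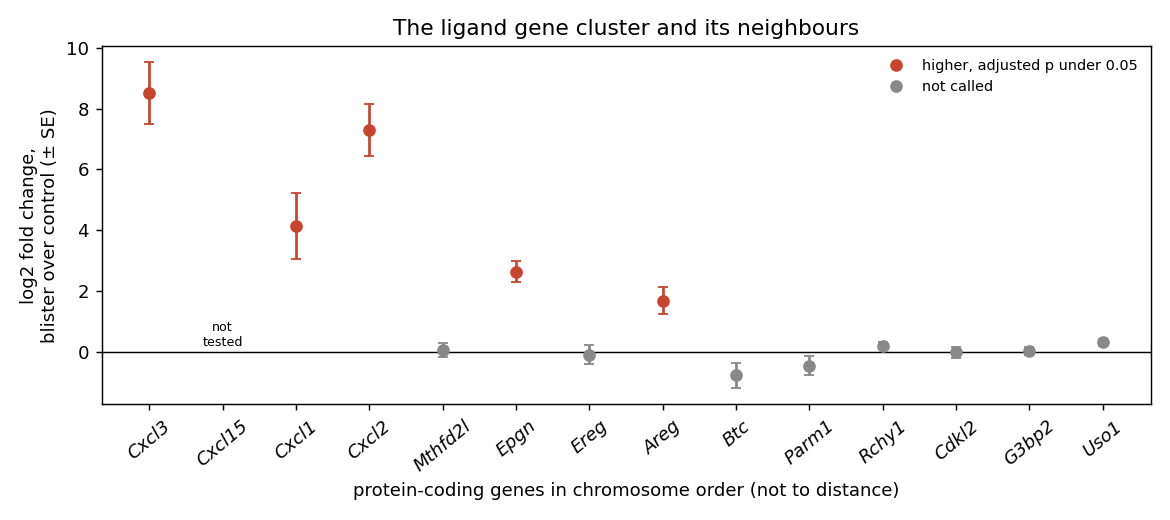
Log2 fold change ± SE, blister over control, of protein-coding genes in their order along chromosome 5, spaced evenly. Epgn at 2.65 and Areg at 1.69 are called, and Ereg and Btc between and beside them are not.

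Promoter windows were looked up for the members, since Epgn and Areg both rose while Ereg and Btc beside them were not called. RefSeq windows (GRCm38.p6) were found for 7 of the 10 genes, and not for Hbegf, Ereg and Erbb3. The 250 bases before the start of Epgn and Areg, and of Errfi1 for comparison, are shown 5′ to 3′ in lower case with motif matches in capitals. Both strands were searched for 3 motifs. The cyclic AMP response element was spelled TGACGTCA. The AP-1 site was spelled TGANTCA, with N for any base. The TATA box was spelled TATAAA.
Epgn, chr5:91027267-91027516, + strand: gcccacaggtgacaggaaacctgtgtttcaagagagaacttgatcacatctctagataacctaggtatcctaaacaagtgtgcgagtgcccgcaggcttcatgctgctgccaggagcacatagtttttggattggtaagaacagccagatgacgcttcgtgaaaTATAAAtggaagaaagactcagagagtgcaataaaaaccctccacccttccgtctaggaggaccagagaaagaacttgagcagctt
Areg, chr5:91139349-91139598, + strand: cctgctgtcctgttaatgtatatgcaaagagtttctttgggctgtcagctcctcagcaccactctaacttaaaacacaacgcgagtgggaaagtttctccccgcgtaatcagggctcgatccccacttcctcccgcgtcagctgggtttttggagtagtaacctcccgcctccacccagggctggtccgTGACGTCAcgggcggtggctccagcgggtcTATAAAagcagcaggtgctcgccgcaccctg
Errfi1, chr4:150854820-150855069, + strand: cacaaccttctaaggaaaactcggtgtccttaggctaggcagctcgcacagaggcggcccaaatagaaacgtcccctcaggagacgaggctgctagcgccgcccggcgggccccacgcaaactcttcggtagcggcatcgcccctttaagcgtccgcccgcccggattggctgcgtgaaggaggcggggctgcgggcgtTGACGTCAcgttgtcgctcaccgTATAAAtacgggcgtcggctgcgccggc
TGACGTCA occurred once in the Areg window, its first base 61 bases before the start, and once in the window shown for Errfi1, at 51 bases before the start. Of 32817 promoter windows of the same length 1.55% held it. TATAAA occurred at 31 bases before the start of Areg, 28 before that of Errfi1 and 86 before that of Epgn, and 12.4% of windows held it. TGANTCA, held by 6.75% of windows, was found in 0 of the 8 member windows. The windows of Tgfa, Btc, Egfr and Erbb2, and a window at another start of Errfi1, held 0 matches to the 3 motifs. A match is a stretch of letters and not a measured binding site.

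Beyond these genes, the other ligands of the family were mostly low. For Nrg1, which encodes a neuregulin that binds Erbb3 and Erbb4, blister 1, 2 and 3 gave 3.03, 19.7 and 6.88 CPM, and the controls 0.767, 0.280 and 0.626 CPM. All 3 blisters lay above all controls, with blister 2 far above the others (the groups did not overlap for 44.6% of all genes tested). The log2 fold change was 4.10 ± 0.76 (SE; edgeR's adjusted p = 0.0141), and the blister mean of 9.86 CPM was 4.95 CPM without blister 2. Egf itself averaged 1.33 CPM in blisters and 1.29 CPM in controls and was not called (edgeR's adjusted p = 0.978), nor were Nrg2 (4.19 against 3.05 CPM, edgeR's adjusted p = 0.234) or Nrg4. Nrg3 and Erbb4 were too low to test, which left 4 tested genes with 1 called higher and 0 lower (9.74% and 11.6% among all genes tested).

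Genes that govern ligand release split in direction. Of 10 tested, 3 were higher and 2 lower, with a median log2 fold change of 0.03, where 9.74% and 11.6% of all genes tested were called. Adam8, a protease gene that neutrophils also express, was at 180, 239 and 137 CPM in blister libraries and at 40.6, 45.4 and 35.9 CPM in controls, a difference of 2.19 ± 0.21 on the log2 scale (SE, edgeR's adjusted p = 0.00418). It was called in all 6 fits with a library left out, and the markers of neutrophils moved with it; their part in its level was not tested. Adam17, the main sheddase of Hbegf, Areg, Epgn and Tgfa precursors, averaged 103 against 73.5 CPM (log2 fold change 0.49, edgeR's adjusted p = 0.0232), and Adam15 156 against 104 CPM (0.60). Timp3, an inhibitor of Adam17, fell from 232 to 99.2 CPM (-1.22, edgeR's adjusted p = 0.0139). Rhbdf1, a carrier protein of Adam17, fell from 161 to 115 CPM (-0.48). Its relative Rhbdf2, named after its values were seen, was at 109 against 126 CPM. Rhbdf2 was not called (-0.21, edgeR's adjusted p = 0.300). Adam10, the usual sheddase of Btc and Egf, named after its values were seen, was at 124 against 103 CPM and was not called (edgeR's adjusted p = 0.154). The calls of Adam17, Adam15 and Rhbdf1 were each lost without blister 1 and without control 1, 2 or 3 (edgeR's adjusted p up to 0.0986, 0.133 and 0.0780), while that of Timp3 held in all 6 fits. With scaling by library size the calls of Adam17 and Adam15 were lost (0.144 and 0.102), and with the Xist covariate those of Adam17, Adam15 and Rhbdf1 (0.0501, 0.0940 and 0.0559).

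**Figure D5:**
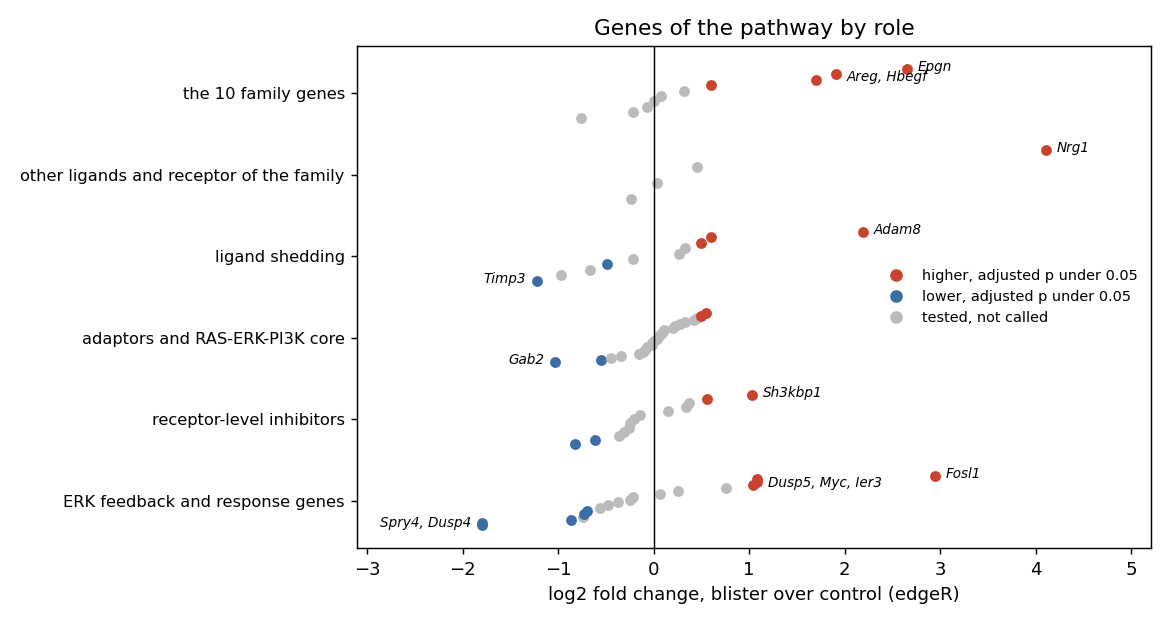
Log2 fold change, blister over control, of each tested gene of the 10 family genes and of 5 lists of the pathway, 1 point per gene; red and blue mark genes called higher and lower. Outside the 10 genes, Nrg1 at 4.10, Fosl1 at 2.94 and Adam8 at 2.19 lie farthest to the right, and Spry4 and Dusp4 farthest to the left at -1.80 and -1.79.

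Of 24 tested adaptor and kinase genes inside the cell 2 were higher, 2 lower and 20 not called, with a median of 0.04, where 21.3% of all genes tested were called. Stat3, a transcription factor gene activated downstream of the receptor and of cytokines, rose from 226 to 332 CPM (log2 fold change 0.55, edgeR's adjusted p = 0.0328). Map2k1, which encodes the kinase MEK1, rose from 60.0 to 84.9 CPM (0.50, edgeR's adjusted p = 0.0342). The adaptor gene Gab2 fell from 12.2 to 5.95 CPM (-1.03, edgeR's adjusted p = 0.0257) and Braf, a RAF kinase gene, from 65.4 to 44.5 CPM (-0.55, edgeR's adjusted p = 0.0494). Each of these calls was lost in 4 or 5 of 6 fits that each dropped a library, without blister 1, control 1 and control 3 among them, at edgeR's adjusted p of up to 0.136. Those of Stat3 and Map2k1 were also lost with scaling by library size (0.141 and 0.283), and those of Map2k1, Gab2 and Braf with the Xist covariate (0.0761, 0.0514 and 0.102). The Braf call was lost with no filter (0.0509) and in limma-voom (0.0606) as well.

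Among inhibitors that act on the receptors, 2 of 13 tested were higher and 2 lower, with a median of -0.20. Of all genes tested, 9.74% were called higher and 11.6% lower. Lrig1, a membrane protein that promotes loss of ErbB receptors and marks follicle stem cells, fell from 480 to 272 CPM (log2 fold change -0.82, edgeR's adjusted p = 0.0471). Blister 1, 2 and 3 gave 184, 271 and 361 CPM for Lrig1, so blister 3 again lay nearest the controls. Its relative Lrig3 fell from 125 to 81.4 CPM (-0.61, edgeR's adjusted p = 0.0372). Sh3kbp1, an adaptor in receptor uptake, rose from 49.6 to 100.9 CPM (1.03, edgeR's adjusted p = 0.0196), and Socs5 from 53.4 to 78.7 CPM (0.56, edgeR's adjusted p = 0.0360). Hair follicle markers fell with Lrig1, and their part in its level was not tested. The Lrig1 and Lrig3 calls were lost without any 1 library but blister 3, that of Socs5 without blister 1 or 2 or control 1 or 2, and that of Sh3kbp1 without blister 1 or control 1 (edgeR's adjusted p up to 0.125, 0.124, 0.108 and 0.0695). With the Xist covariate the calls of Lrig1, Lrig3 and Socs5 were lost (0.0817, 0.0655 and 0.0600), and with scaling by library size that of Socs5 (0.240).

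Genes that respond to the ERK kinases downstream of the receptors went both ways, 4 of 18 higher and 5 lower, with a median of -0.31. The higher ones were Fosl1, an AP-1 subunit gene (0.743 to 5.96 CPM, log2 fold change 2.94, edgeR's adjusted p = 0.0146), Myc (104 to 221 CPM, 1.08, edgeR's adjusted p = 0.0141), Ier3 (18.6 to 39.5 CPM, 1.08) and the ERK phosphatase gene Dusp5 (5.81 to 11.9 CPM, 1.04). The lower ones were the feedback inhibitor genes Spry4 (6.68 to 1.92 CPM, -1.80), Dusp4 (22.0 to 6.29 CPM, -1.79), Spred1 (69.8 to 42.1 CPM, -0.73) and Spry1 (54.4 to 33.3 CPM, -0.70), and Ccnd1, the cyclin D1 gene (394 to 217 CPM, -0.86). For all of these but Spry1, blister 3 was the blister library nearest the controls. Dusp6, Egr1 and Phlda1, often read as markers of ERK activity and named here after their values were seen, were not called (edgeR's adjusted p = 0.522, 0.544 and 0.841). The other uncalled genes of the list, likewise named after their values were seen, differed in direction. Spry2, Spred2, Etv4 and Etv5 were at -0.38, -0.74, -0.48 and -0.57 (edgeR's adjusted p from 0.0802 to 0.214). Fos was at 0.75 and Spred3 at 0.25 (edgeR's adjusted p = 0.0670 and 0.646). The blister mean of Dusp4 was 4.08 CPM without blister 3. Each of the 9 calls was lost in at least 1 fit with a library left out, control 1 among them, from 1 of 6 fits for Myc and Spry4 to 6 of 6 for Spry1 (edgeR's adjusted p up to 0.0549, 0.0547 and 0.134). The calls of Dusp5, Ier3 and Spry1 were lost with the Xist covariate (0.0566, 0.0658 and 0.0985), and those of Dusp5 and Ier3 with scaling by library size (0.0553 and 0.0531). Over the 5 lists, 12 of 69 tested genes (17.4%) were higher and 11 (15.9%) lower, against 9.74% and 11.6% of all genes tested. The 12 and 11 became 2 and 1 without control 1, 4 and 4 without blister 1 or control 2, 7 and 2 without control 3, and 10 and 4 without blister 2. They became 5 and 16 with scaling by library size and 6 and 5 with the Xist covariate.

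The genes whose pattern over the 6 libraries lay closest to a member were found by the root mean square difference of centred log2 CPM, among 11237 or 11238 other genes whose mean was 5 CPM or more. This is a description with no test, and the group difference itself shapes it. For Hbegf the nearest was Krt14, the basal keratinocyte keratin gene, at a difference of 0.20 on the log2 scale. Of the basal keratinocyte markers, Krt14 among them, 3 of 6 were called higher in blisters, and their part in the Hbegf level was not tested. For Areg the nearest was Hbegf (0.27), and for Tgfa Chchd3, which encodes a mitochondrial inner membrane protein (0.05). The genes nearest to Egfr, Erbb2, Erbb3 and Errfi1 were Kat6a (0.04), Dctn1 (0.02), Wasf2 (0.08) and Cpne1 (0.04). A small difference is easier to reach for a member that varies little. The root mean square of centred log2 CPM was 0.31, 0.13, 0.38 and 0.19 for these members, against 0.34 for Tgfa and 0.99 for Hbegf. Wfs1 (0.14) was nearest to Ereg and Aldh1a7 (0.18) to Btc.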

How the data were processed

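The authors deposited 1 table of raw read counts per gene symbol for each of the 6 libraries. HISAT2 2.0.0 was the aligner and featureCounts the counter named per the submitters' processing notes, which list the builds NCBIM37 and mm9. Strand setting and annotation: not given in the sources used here. Reads of overlapping genes may be shared. Genes were tested with edgeR 4.0.16 in R 4.3.3 (quasi-likelihood F-test, two-sided, TMM scaling, group as the single term, 3 blister against 3 control libraries) after filterByExpr (minimum count 10, minimum total 15), which kept 14028 of 24014 genes, and p-values were adjusted by Benjamini-Hochberg over these, with a threshold of 0.05. CPM values use the total of the tested genes times the TMM factor, and SE and 95% intervals come from the edgeR fit. Lengths are from GENCODE M21 on GRCm38, which differs from the build of the counts, and no coordinates of the counted genes are given. No library was a copy of another of its group.

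Alternatives were median-of-ratios and library size scaling, no filter, a filter at 5 CPM in 3 libraries, DESeq2 1.42.0, limma-voom (limma 3.58.1), the replicate number as a block, the log2 CPM of Xist as a covariate (prior count 2), and leaving out each library in turn; leaving out blister 3 and control 3 together, and levels per kb of the longest transcript, were chosen after seeing the data. The members, lists, tests and naming rules were chosen with earlier results of these data known. The rule named all 10 members, the 2 smallest p-values of each pathway list and any list gene in a count of 5 or fewer, the nearest pattern to each member (that of Epgn is not reported here), and the 5 protein-coding genes on either side of the ligand cluster. The procedure was tested on simulated data. Plots were drawn with matplotlib 3.10.9.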

Additional observations from a re-analysis of the deposited data

How the results depend on the processing

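With library size scaling 544 genes were called higher and 2831 lower, and 5 list genes higher. With the Xist covariate 680 and 1016 genes, 2 members higher, and 6 list genes higher and 5 lower were called. Leaving out 1 library gave 306 (without control 1) to 1998 (without blister 3) genes higher and 479 to 2063 lower, 2 to 4 members higher and 0 to 1 lower (Egfr, without blister 3), and 2 to 16 list genes higher and 1 to 14 lower; these fits hold fewer samples. Without both blister 3 and control 3, an alternative chosen after seeing the data, 3 members were called higher and 0 lower, and Tgfa was not called (edgeR adjusted p = 0.0523). Hbegf and Epgn were called under every alternative run. With the longest transcript as length, shares were 24.5% and 21.8% for Hbegf in blister and control, 24.6% for Areg in control, 37.9% for Epgn in blister and 22.95% for Tgfa in control. Library size scaling cannot move a share.

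Genes near no change turned in sign, with 0 of them called. Ereg was at 0.0033 with the Xist covariate, at 0.35 without both blister 3 and control 3, and between -0.35 and 0.19 (0.040 without blister 2, 0.086 without blister 3) with 1 library left out. Erbb2 was at -0.26 with library size scaling, -0.029 with the stricter filter, -0.012 in limma-voom, -0.0082 with the replicate block, -0.067 without both, and between -0.053 and 0.13 with 1 library left out (-0.049 without blister 1, -0.014 without control 1, -0.012 without control 3). Erbb3 was at -0.17 with library size scaling, -0.018 in limma-voom, -0.020 with the replicate block, -0.31 without both, and between -0.34 (without blister 3) and 0.34 with 1 library left out. The cause of these turns was not tested. Ereg and Btc could not be tested under the stricter filter, nor could Nrg1, Nrg2, Fosl1 and Cxcl1. The calls of Nrg1, Fosl1 and Cxcl1 could thus not be checked there. Nrg1 had 4 to 11 reads in a control library and Fosl1 6 to 20.

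Deviations of same-numbered libraries from their group means correlated at 0.21, -0.26 and 0.01 across genes. Differently numbered libraries gave -0.39 to 0.34. With 3 libraries per group these values cannot settle whether the numbers pair the samples. With the replicate block 1365 genes were called higher and 1511 lower, and 3 members, without Areg (adjusted p = 0.0507). Of the other genes named, the calls of Adam15, Stat3, Map2k1, Socs5, Ier3 and Cxcl1 were lost with the block, at adjusted p of 0.0606, 0.0544, 0.0636, 0.0520, 0.0544 and 0.0830. In the edgeR fit without the block 4 members were called.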
